A study of Mus musculus with 4 samples.

Results

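Neat1, Malat1, Meg3 and H19 are 4 long noncoding RNA genes of the mouse, taken by their symbols from the 24548 genes of a Foxp1 ChIP-seq count table in which 2136 genes are typed as long noncoding RNA by RefSeq. RefSeq types each of the 4 as lncRNA, and these DNA libraries show neither the nuclear location of the RNAs nor imprinting. They were chosen with their ChIP and input reads in basal and luminal cells already known, so the enrichment values below describe them and test nothing. Chromatin immunoprecipitation with sequencing recovers the DNA bound by a protein, here Foxp1, a forkhead transcription factor. The cells were basal and luminal epithelial cells from the mammary glands of wild-type FVB/N females (FBV/N in the sample labels) that were 10 to 12 weeks old, with no treatment. The 4 groups were the Foxp1 ChIP of basal cells, the input DNA of basal cells (no antibody), the Foxp1 ChIP of luminal cells and the input DNA of luminal cells, with 1 library each. Whether animals were pooled, how the cells were sorted and what the column prefix of the basal libraries stands for were found in no source at hand.

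Long noncoding RNAs are transcripts that are not translated, and many act in the nucleus. Neat1 is the scaffold of paraspeckles, nuclear bodies that hold RNA-binding proteins such as Sfpq and Nono, and mice that lack it have impaired mammary branching and lactation. Malat1, its neighbour, is an abundant RNA of nuclear speckles, where splicing factors gather, and a small tRNA-like RNA, mascRNA, is cut from its 3' end. H19 and Meg3 are imprinted: each is expressed from the maternal chromosome, H19 beside the paternally expressed growth factor gene Igf2 and Meg3 beside the paternally expressed Notch-like gene Dlk1. H19 is also the host of the microRNA gene Mir675, and Meg3 of Mir770.

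In the GRCm38 assembly (mm10 build), Neat1 (Entrez gene 66961) lies on chromosome 19 from 5824708 to 5845480, and Malat1 (Entrez gene 72289) on the same chromosome from 5795690 to 5802672, 22.04 kb away. Meg3 (Entrez gene 17263) lies on chromosome 12 from 109540996 to 109571729 and H19 (Entrez gene 14955) on chromosome 7 from 142575530 to 142578146. Of the 4, 2 matched an entry in RefSeq's table of start sites, with 250 bases before and 50 after the start: Malat1 with 1 start and Meg3 with 2; Neat1 and H19 did not match. The windows are shown because forkhead factors bind short A/T-rich motifs and a reader can look for them there. Capitals mark the letters TGTTTA on either strand, the core shared by many forkhead sites.

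Malat1, chr19:5802623-5802922, minus strand: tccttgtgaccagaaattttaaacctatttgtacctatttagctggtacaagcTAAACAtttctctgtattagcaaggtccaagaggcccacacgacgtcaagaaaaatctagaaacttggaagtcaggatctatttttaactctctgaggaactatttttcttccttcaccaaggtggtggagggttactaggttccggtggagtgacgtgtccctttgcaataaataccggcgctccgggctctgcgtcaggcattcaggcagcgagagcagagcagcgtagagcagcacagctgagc
Meg3 first start, chr12:109540746-109541045, plus strand: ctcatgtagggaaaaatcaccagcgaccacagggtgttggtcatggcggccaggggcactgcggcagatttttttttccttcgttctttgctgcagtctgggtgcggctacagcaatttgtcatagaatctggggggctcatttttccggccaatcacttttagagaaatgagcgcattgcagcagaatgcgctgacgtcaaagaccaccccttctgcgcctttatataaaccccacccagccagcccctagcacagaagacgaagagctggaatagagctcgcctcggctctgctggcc
Meg3 second start, chr12:109545148-109545447, plus strand: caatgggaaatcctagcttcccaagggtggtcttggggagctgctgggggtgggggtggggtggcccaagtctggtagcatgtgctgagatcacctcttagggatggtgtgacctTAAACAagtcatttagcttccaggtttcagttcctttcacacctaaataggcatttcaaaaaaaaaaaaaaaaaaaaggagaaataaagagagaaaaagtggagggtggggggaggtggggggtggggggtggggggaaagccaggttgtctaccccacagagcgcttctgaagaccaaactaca

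The full forkhead motifs TGTTTAC (held by 2.99% of 21974 such windows of genes in the count table), TGTTTGC (4.55%), TGTTTGT (5.84%) and TGTTGAC (2.13%) were searched on both strands. None of the 3 windows printed above held any of them, and 14.3% of the 21974 held at least 1. The shorter TGTTTA, which is part of TGTTTAC and was added after the sequences had been seen, was found once in the Malat1 window, on the strand opposite to the gene, and once at the second Meg3 start; 11.5% of the 21974 windows held it. A match to letters is a description, and these windows are much narrower than the regions in which reads were counted.

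No source at hand states the region counted for a gene, so it was examined on the input reads. Among genes whose start lay 500 to 1000 bp from that of 1 neighbour on the same strand, the median over both inputs was 37.5 reads (24 genes). It was 165 at 2000 to 3000 bp (36 genes), 343.5 at 4000 to 5000 bp (74 genes) and 365 at 6000 to 8000 bp (194 genes). The counts thus behaved as reads in a few kilobases around each start, with reads shared by 2 genes left out. Mir770, which starts 22.7 kb inside Meg3, had 132 and 139 input reads of its own, so the Meg3 value does not cover the whole Meg3 gene. Mir675 lies wholly within the 2617 bp of H19, and the reads of these 2 genes cannot be fully told apart.

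Totals ranged from 3080114 to 4201459 reads in counted regions, and the median tested gene had 136 to 192 reads per library. Enrichment is the log2 ratio of scaled ChIP to scaled input reads (TMM scaling over the 4 libraries), with an exact 99% Clopper-Pearson interval. A gene was called higher or lower when the ratio was at least 1.5-fold and the interval excluded 1. With 1 library per group there is no spread between replicates, so no p-value is given, and intervals cover counting error only. No control antibody was among the libraries, and the markers of basal and luminal cells in DNA libraries show recovery of their genes, not expression. Of 10 basal marker genes, 5 were called more enriched in basal than in luminal cells and none less. Of 12 luminal marker genes, 1 was called less enriched in basal cells and none more. Of all tested genes, 3.72% were called more enriched in basal and 4.16% in luminal cells.

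Neat1 was enriched in Foxp1 ChIP in both cell types. It had 611 reads in basal ChIP and 218 in basal input, and 610 in luminal ChIP and 359 in luminal input. In scaled reads (TMM-scaled, per 1e6) this is 165.7 against 69.7 in basal cells and 194.7 against 84.2 in luminal cells, so that both ChIP libraries lay well above both inputs. The ratio was 2.38-fold in basal cells (99% interval 1.94 to 2.93) and 2.31-fold in luminal cells (1.95 to 2.75). Neat1 ranked 60 of 23128 tested genes in basal cells and 33 in luminal cells, and 9 and 4 of the 2068 tested lncRNA genes.

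Malat1 had 440 reads in basal ChIP and 218 in basal input, and 457 in luminal ChIP and 370 in luminal input. The scaled values were 119.4 and 69.7 in basal cells and 145.9 and 86.8 in luminal cells, again with both ChIP libraries above both inputs. Malat1 stood at 1.71-fold in basal (1.38 to 2.13) and 1.68-fold in luminal cells (1.40 to 2.02), and ranked 480 and 242 of all tested genes. Neat1 exceeded Malat1 by log2 0.47 in basal cells (99% interval 0.05 to 0.90) and by 0.46 in luminal cells (0.10 to 0.82). Among olfactory receptor genes the variance was 2.29 times that of counting error in basal and 2.13 times in luminal cells. When the Neat1 to Malat1 intervals were widened by this spread, the square root of those values, both included 0 (-0.17 to 1.12 and -0.06 to 0.98).

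Meg3 was called in neither cell type. The basal libraries held 76 Meg3 reads after ChIP and 77 before it, and the luminal libraries 59 and 91. The ratios were 0.838-fold (0.545 to 1.29) and 0.882-fold (0.562 to 1.37), neither of them called. H19 had the fewest reads of the 4, with 25 in basal ChIP and 43 in basal input, and 20 in luminal ChIP and 43 in luminal input. In both cell types the ChIP library was the lower of the pair. H19 was called lower in basal cells at 0.493-fold (0.245 to 0.960), a call with its upper bound close to 1, and was not called in luminal cells at 0.633-fold (0.293 to 1.29). With the reads of H19 and Mir675 summed, a setting added after the data were seen, basal cells had 47 over 64 reads and luminal cells 32 over 67. The log2 ratios were then -0.68 (-1.43 to 0.05) and -0.62 (-1.48 to 0.19), and the basal call was lost.

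**Figure D1:**
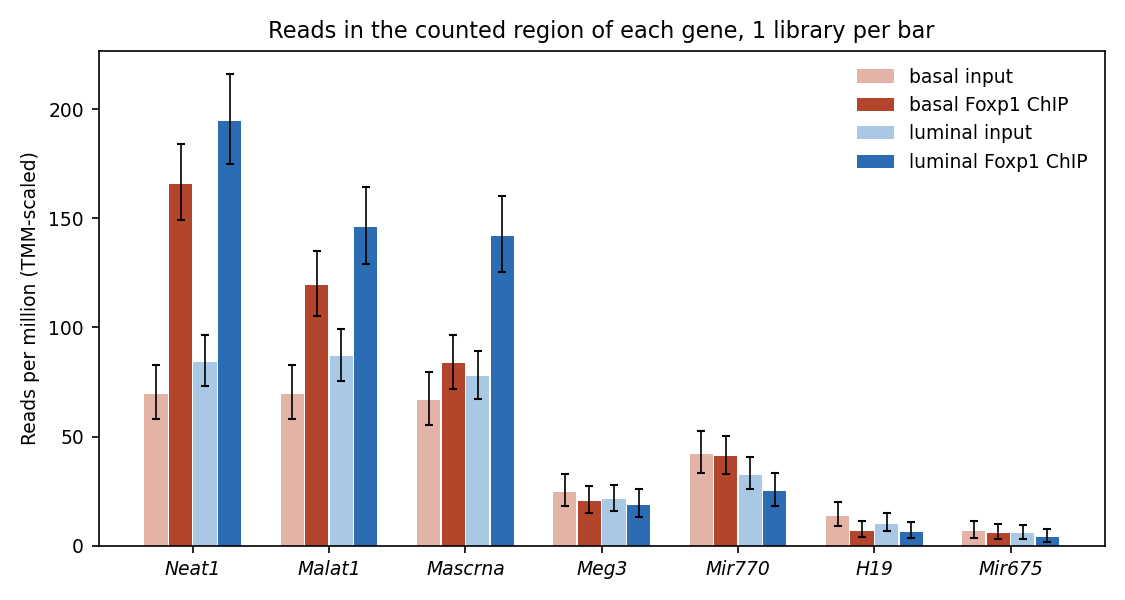
TMM-scaled reads, per 1e6 (y axis), in the counted region of each member and of the small RNA genes inside 3 of them (x axis). Each bar is 1 library and each error bar is an exact 99% Poisson interval of its reads. Both ChIP bars of Neat1 and of Malat1 stand above both of their input bars, while no ChIP bar of Meg3 or H19 does.

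Read against all tested genes, 2 of the 4 members were called higher and 1 lower in basal cells, and the shares over all tested genes were 4.24% higher and 4.06% lower. In luminal cells 2 of 4 were called higher and none lower, against 1.5% and 2.13% of all genes. These shares are given beside the members without inference, since the members were chosen on these ratios. Among the other 2064 tested lncRNA genes, basal ChIP gave 48 called higher (2.33%) and 122 called lower (5.91%), with a median log2 ratio of -0.12. In luminal cells 26 (1.26%) were called higher and 56 (2.71%) lower, with a median of -0.07. With the 4 members included, 50 lncRNA genes were called higher in basal cells and 28 in luminal cells. Of these 3 were called in both, which is 6.0% of the basal and 10.7% of the luminal calls: Neat1, Malat1 and 5430416N02Rik, the last named here after its values were seen. The same overlap was not computed over all tested genes. Neat1 and Malat1 were moreover chosen on these ratios, so these shares are not read as high or low. In the plot of basal against luminal enrichment, Neat1 and Malat1 lie outside the main cloud toward the upper right.

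**Figure D2:**
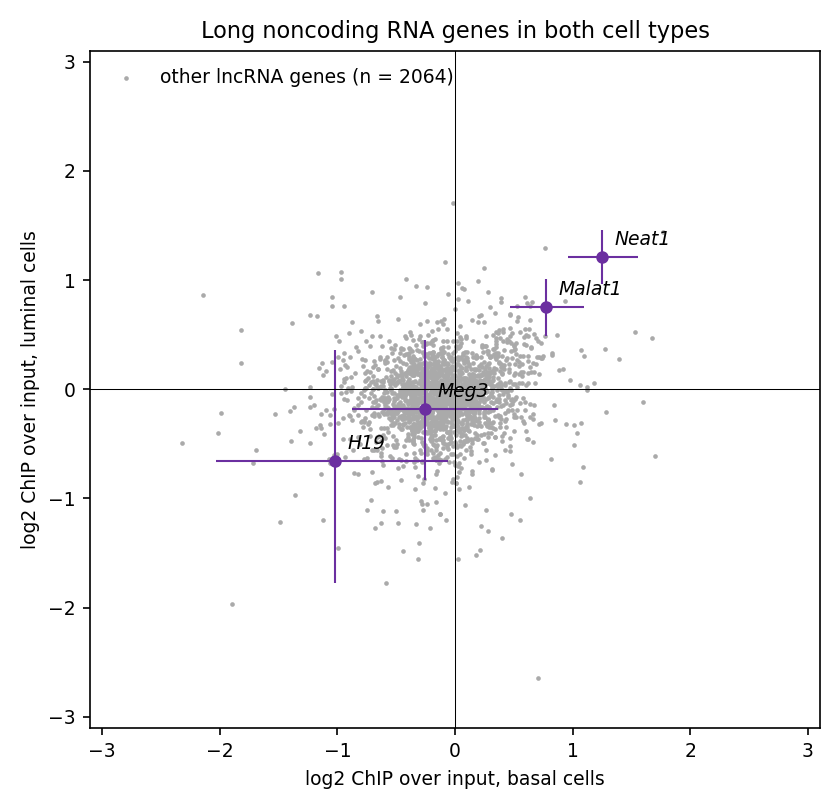
Log2 ratio of ChIP to input in basal cells (x axis) and luminal cells (y axis) for the 2068 tested lncRNA genes, with the 4 members in purple and bars for their 99% counting intervals. Neat1 (1.25 and 1.21) and Malat1 (0.78 and 0.75) lie near the diagonal at upper right, Meg3 lies within the cloud and H19 below 0 on both axes.

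With each cell type's own input as background, no member's enrichment differed between basal and luminal cells beyond its counting interval. The difference, basal minus luminal, was log2 0.04 for Neat1 (standard error 0.15, 99% interval -0.34 to 0.42) and 0.03 for Malat1 (standard error 0.16, -0.38 to 0.43). These intervals, which cover counting error only, leave room for a difference of up to 1.34-fold and 1.35-fold toward basal cells. Widened by the receptor spread, they ran from -0.53 to 0.61 for Neat1 and from -0.57 to 0.63 for Malat1. Both widened intervals allow more than 1.5-fold toward basal cells. For Meg3 it was -0.08 (-0.94 to 0.78) and for H19 -0.37 (-1.73 to 0.99), intervals that allow more than 1.5-fold either way. With the inputs summed as a shared background, the differences were -0.23 for Neat1 (-0.45 to -0.02) and -0.29 for Malat1 (-0.54 to -0.04), toward luminal cells, with intervals that exclude 0 and sizes under 1.5-fold. The shared background cancels in this setting, so each such difference is basal ChIP over luminal ChIP with no input in it. None of the 4 was called, where 3.72% of tested genes were called more enriched in basal and 4.16% in luminal cells.

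The inputs, which hold no antibody signal, were themselves unequal between the members. Neat1 and Malat1 each had 218 reads in basal input, more than 98.0% of tested genes, and in luminal input they had more reads than 99.7% and 99.8% of tested genes. Meg3 lay above only 17.2% and 16.1% of tested genes in basal and luminal input, and H19 above 12.8% and 9.46%. The 2 members with the most input reads were thus also those called higher in ChIP, and the part of input level in those calls was not tested. Mir675 lies within H19, and Mir1906-1, with 0 reads in every library, starts 3.54 kb from the Meg3 start. Reads shared by 2 genes appeared to be left out of the counts. Their part in the low Meg3 and H19 input counts was not tested. Basal over luminal input was log2 -0.27 for Neat1 (-0.60 to 0.05), -0.32 for Malat1 (-0.64 to 0.003), 0.21 for Meg3 and 0.45 for H19 (-0.39 to 1.28). None was called, with 0.709% of tested genes called toward the basal input and 0.463% toward the luminal one. The ChIP libraries compared directly give the same values as the difference with the inputs summed, since they are 1 calculation. Neat1 was higher in luminal ChIP by log2 0.23 (basal minus luminal -0.23, 99% interval -0.45 to -0.02) and Malat1 stood at -0.29 (-0.54 to -0.04). Both are smaller than 1.5-fold. The part of the input levels in them was not tested.

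A region that the choice of members did not use was the mascRNA gene (Mascrna, Entrez gene 109146451), counted separately at the far end of Malat1, from 5795924 to 5795981 and 6.69 kb from the Malat1 start. Its reads numbered 308 after basal ChIP and 209 in the basal input, 445 after luminal ChIP and 331 in the luminal input. Enrichment at this end of Malat1 was called in luminal cells, at 1.83-fold (1.51 to 2.21), and not in basal cells, at 1.25-fold (log2 0.32, -0.01 to 0.66). In luminal cells the 2 ends of Malat1 differed by log2 -0.12 (Malat1 minus Mascrna, -0.50 to 0.25). In basal cells the start exceeded the far end by 0.45 (0.00 to 0.91), an interval that included 0 when widened by the receptor spread (-0.23 to 1.14). The basal minus luminal difference at Mascrna was -0.55 (standard error 0.17, -0.98 to -0.12). It was just under 1.5-fold and not called. With the inputs summed, which here compares basal with luminal ChIP without input, it was -0.77 and was called.

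No protein-coding gene around Neat1 and Malat1 on chromosome 19 was called in either cell type with TMM scaling and each cell type's own input. Of 13 tested genes within 100 kb of Neat1, 1 was called higher in basal cells (Malat1) and 2 in luminal cells (Malat1 and Mascrna), and none was called lower. Frmd8, the nearest protein-coding gene, lies 5.49 kb from Neat1 between gene bodies. It is on the minus strand, so its start, around which reads appeared to be counted, lies at its far end (5875269). Frmd8 had 103 reads over 89 in basal and 70 over 111 in luminal cells, log2 -0.03 and -0.22. The highest of the protein-coding genes in luminal cells was Fam89b at 0.69, which was not called. Ltbp3, which encodes a protein that binds latent TGF-beta, had 313 reads over 189 in basal ChIP and 149 over 226 in luminal ChIP. Its difference of 0.64 (0.12 to 1.16) was called as more enriched in basal cells, a call lost with the widened interval. Its basal ratio of 0.49 was called with the inputs summed (0.60) and with olfactory receptors as centre (0.71). Dpf2, a subunit of BAF chromatin remodelling complexes, differed the other way by -0.68 (-1.18 to -0.19), with ratios of -0.40 in basal and 0.29 in luminal cells. The Dpf2 difference was no longer called with olfactory receptors as centre (-0.54) or with the widened interval.

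At the Meg3 locus no gene was called higher in ChIP than in input, and Dlk1 was called more enriched in basal than in luminal cells. Of 31 genes within 100 kb of Meg3, most of them small RNAs packed close together, 17 had 0 reads in all 4 libraries and 10 were tested. Of the 10, 8 had a higher ratio in basal than in luminal cells, with a median difference of log2 0.19. Among all tested genes, 11645 of 23128 had a difference above 0, with a median of 0.003. The median at the Meg3 locus was 0.12 with no low-count filter (14 genes) and 0.52 with the inputs summed. These genes share 1 locus and are not separate observations, so no shift is read from the count. Dlk1, whose protein restrains differentiation of fat and other cells, had 188 reads over 107 in basal cells and 89 over 138 in luminal cells. Its ratio was 1.49-fold in basal cells (1.09 to 2.06), just short of a call (it was called with DESeq2 size factors, olfactory receptors as centre and the inputs summed), and 0.878-fold in luminal cells. The difference of log2 0.76 (0.08 to 1.43) was called. The lncRNA gene Rian, expressed from the same chromosome as Meg3, had 156 over 110 and 79 over 136 reads, a difference of 0.60 (-0.10 to 1.30) that was not called. Mir770, inside Meg3, had 151 over 132 and 78 over 139 reads, and Mir673, 0.26 kb past the end of Meg3, was called lower in luminal cells at 0.600-fold (0.403 to 0.878). With both inputs summed, which compares basal with luminal ChIP without input, Dlk1, Mir770 and Rian were called higher in basal cells. With olfactory receptors as centre Dlk1 and Rian were called more enriched in basal cells. With the widened interval the calls on Dlk1 and Mir673 were both lost.

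Around H19 none of 9 tested genes within 100 kb was called in either cell type or in the difference with TMM scaling and each cell type's own input. Igf2, the insulin-like growth factor 2 gene, lies 72.62 kb from H19 between gene bodies, with its start at its far end (142666816, minus strand). Igf2 had 117 reads over 122 in basal cells and 106 over 146 in luminal cells, log2 -0.30 and -0.02. Nctc1, a noncoding RNA gene on the other side of H19, stood at -0.57 (-1.10 to -0.04) in basal and -0.17 in luminal cells. With total-count scaling Nctc1 was called lower in basal cells (-0.62). Igf2os, antisense to Igf2, went the other way in basal cells, with 128 over 76 reads, log2 0.52 (-0.03 to 1.08), and 72 over 117 in luminal cells. Its difference of 0.76 (-0.01 to 1.54) was called toward basal cells with DESeq2 size factors (0.77), the inputs summed (0.60) and olfactory receptors as centre (0.91), and under the last its basal ratio (0.73) was called too. DNA libraries do not separate the strands, so reads near Igf2 and Igf2os cannot be assigned to either transcript.

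**Figure D3:**
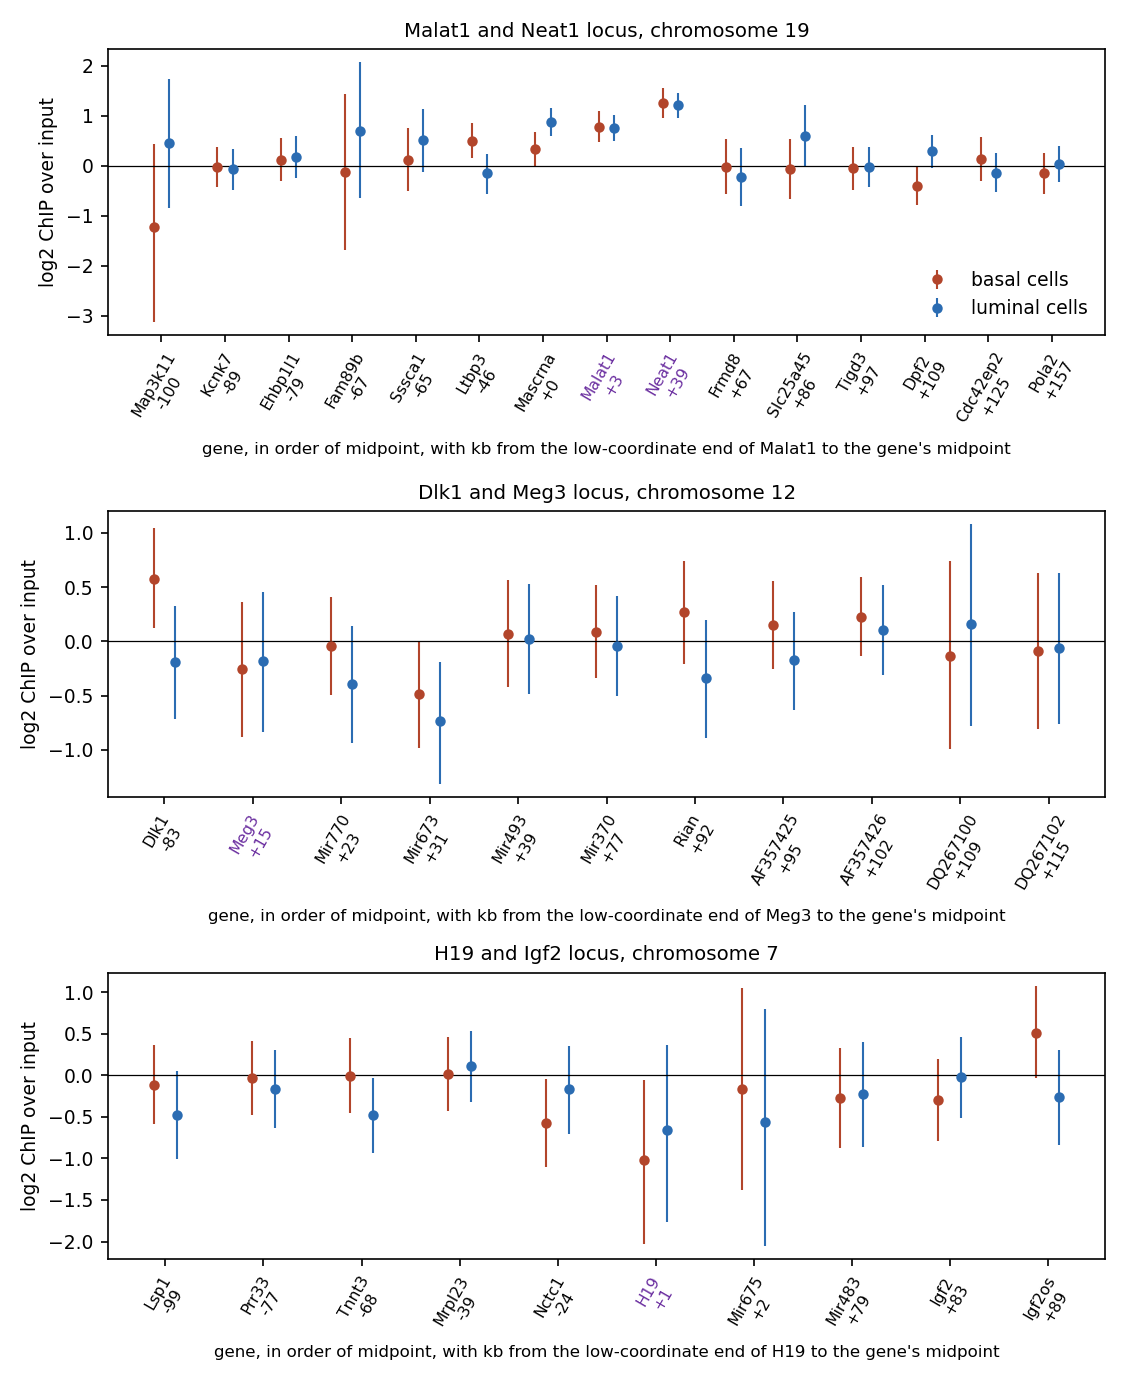
Log2 ratio of ChIP to input (y axis) in basal (red) and luminal (blue) cells for tested genes within 100 kb of each member, in order of position, with 99% counting intervals; not every such gene on chromosome 19 is drawn. On chromosome 19 Neat1 and Malat1 are the highest in basal cells, and Neat1, Mascrna and Malat1 in luminal cells; Dlk1 differs between cell types on chromosome 12, and H19 is lowest on chromosome 7.

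Other lncRNA genes, from a fixed list of 66 of which 54 were tested, had no gene called higher in luminal cells (1 with olfactory receptors as centre, 2 with the inputs summed). Only 1.5% of all tested genes were called higher there, so nothing is read from this absence. In basal cells 7 of the 54 were called higher (13.0%) and 3 lower, against 4.24% and 4.06% of all tested genes. The basal median log2 ratio of the list was 0.04. The highest was Lncpint, a p53-induced transcript, with 90 reads over 24 in basal and 57 over 56 in luminal cells, log2 1.67 and 0.47. Bvht stood at 0.87 in basal cells, and Zfas1, a host of small nucleolar RNAs, at 0.92 on 60 over 27 reads. Snhg15 and Snhg17, also snoRNA hosts, stood at 0.60 and 0.63. Tug1 (4 over 17 reads) and the Hox cluster transcript Hottip (13 over 31) were called lower, and Crnde was the third. With total-count scaling, and also with the inputs summed, 2 rather than 7 were called higher in basal cells, and with olfactory receptors as centre 12 were. In luminal cells 2 were called lower, Hottip (20 over 63) and Snhg6 (27 over 76), and the median was -0.07. With the widened interval none of the lower calls of this list was left in either cell type.

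Genes for proteins of the bodies that Neat1 and Malat1 RNAs occupy were examined next. Of 24 tested paraspeckle protein genes, basal ChIP gave 4 called higher (16.7%) and 0 lower, and the median log2 ratio was 0.16. Tardbp, which encodes the RNA-binding protein TDP-43, had 360 reads over 171 in basal and 379 over 253 in luminal cells. It stood at 0.84 and 1.03 and was the only 1 of the 24 called higher in luminal cells. Sfpq, a core paraspeckle protein, stood at 0.66 in basal cells and 0.21 in luminal cells, and Hnrnpul1 at 0.66 and 0.23. Rbm7, on 13 over 42 reads, was called lower in luminal cells, a call lost with the widened interval. With the inputs summed 2 were called higher in basal cells, and Sfpq was not among them.

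The basal median of 20 tested nuclear speckle protein genes was 0.34. Basal ChIP gave 4 of them called higher and 0 lower, against 4.24% and 4.06% of all tested genes. The 4 were Prpf4b, a splicing kinase, at 0.74, Srrm2, a scaffold of speckles, at 0.68, and the SR splicing factors Srsf3 at 0.63 and Srsf6 at 0.62. In luminal cells Srsf3 (0.66) and U2af2 (0.63) were called higher, Srsf5 lower on 13 over 43 reads, and the median was 0.25. Among all tested genes, 1.5% were called higher and 2.13% lower in luminal cells. The luminal call on U2af2 was lost with the inputs summed (0.58) and that on Srsf5 with the widened interval. In basal cells 10 were called higher with olfactory receptors as centre, 2 with total counts and 1 with the inputs summed. No gene of either protein list was called in the difference between cell types, although 2 of each were with olfactory receptors as centre. Over all tested genes 3.72% were called toward basal and 4.16% toward luminal cells.

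Imprinted genes other than the members showed no higher call in either cell type with TMM scaling and each cell type's own input. Only 4.24% of all tested genes were called higher in basal and 1.5% in luminal cells, so nothing is read from this absence. The shares of all tested genes called lower were 4.06% and 2.13%. Of 23 tested maternally expressed genes, 1 was called lower in basal cells (Slc22a3, -0.61) and 1 in luminal cells (Cd81, -0.84), with medians of 0.09 and 0.11. Both calls were lost with the widened interval. Of 25 tested paternally expressed genes, 2 were called lower in basal cells, Sgce (19 over 45 reads) and Zdbf2 (89 over 141), and none in luminal cells, with medians of 0.03 and 0.10. With the widened interval 1 of these 2 lower calls was left. In the difference between cell types, 3.72% of all tested genes were called toward basal and 4.16% toward luminal cells. Of the paternally expressed genes, 1 was called toward basal cells (Dlk1) and 4 toward luminal cells: Sgce, Zdbf2, Magel2 and Slc38a4. With the widened interval 1 of these 5 calls was left, and with olfactory receptors as centre 3 paternally expressed genes were called toward basal and 2 toward luminal cells. Of the maternally expressed genes 2 were called toward luminal cells, Calcr (-0.82) and Ppp1r9a (-0.68), and none with the widened interval. With olfactory receptors as centre, 3 of them were called toward basal and 1 toward luminal cells, so the balance in both imprinted lists turned with that scaling. In basal cells DESeq2 size factors gave 1 higher call in each imprinted list, the inputs summed gave 2 in each and olfactory receptors as centre gave 3 in each.

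**Figure D4:**
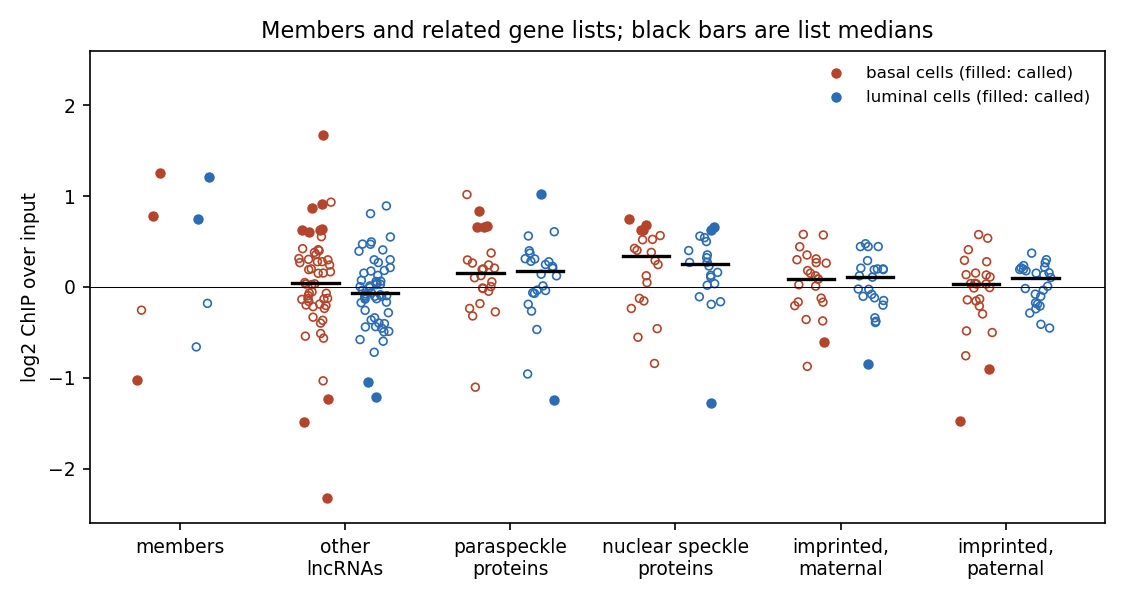
Log2 ratio of ChIP to input (y axis) for the 4 members and for the tested genes of 5 related lists (x axis), 1 point per gene and cell type, filled where the gene was called, with list medians as black bars. In luminal cells Neat1 (1.21) lies above every listed gene, the highest being Tardbp at 1.03, and in basal cells Lncpint (1.67) lies above Neat1 (1.25).

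The genes with ratios most like each member were taken by the distance between their pair of log2 ratios, over 2 cell types, among 15884 tested genes with at least 250 reads over both inputs, predicted and clone-named genes left out. For Neat1 they were the microRNA gene Mir21a (distance 0.11), the histone chaperone gene Anp32b (0.16) and the zinc finger factor gene Klf6 (0.16). Those of Malat1 were Nfil3, a transcription factor gene (0.02), Cyr61, a matricellular protein gene (0.04), and Rhob, a small GTPase gene (0.04). Meg3 was nearest to Zfp74, the olfactory receptor gene Olfr1312 and Mir6340, each within 0.01. H19 was nearest to Mir344d-3, Pcolce2 and Mir6966 at 0.14 to 0.20. All of these values come from the same 4 libraries.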

How the data were processed

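The deposited values are raw read counts per gene that the authors made, not normalized; per the submitters' processing notes they used featureCounts and build mm10. The aligner, tool versions, treatment of duplicates and counted region were found in no source at hand. The series table and the 4 sample files held equal counts for 24548 of 24548 genes. Entrez IDs were matched to RefSeq GRCm38.p6, which held 24480 of them; a strand was known for 19282.

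TMM factors (edgeR 4.0.16, R 4.3.3) came from the 23128 genes whose counts summed to 40 or more over all 4 libraries. Ratios and intervals used Python 3.11.15 and scipy 1.17.1. A count of 0.5 was added to each count for the difference between cell types, and elsewhere only to genes with a 0. The calculation was tested on counts simulated with Poisson error only. That simulation lacks the extra spread seen among olfactory receptor genes, so it cannot show how the intervals cover such spread. Alternatives were total counts, DESeq2 1.42.0 size factors, olfactory receptors as centre, no low-count filter, summed inputs, intervals widened by the olfactory receptor spread and a 2-fold threshold. With summed inputs the shared background cancels from the difference between cell types, which is then basal ChIP over luminal ChIP.

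Members, gene lists and tests were chosen with earlier results of these data known. Named are the members, genes within 100 kb, the highest 3 and lowest 2 of each list or its called genes, and the 3 genes nearest each member; some such genes are given only in counts, and some are not reported here by name. A check of promoter base composition was void, since 2 of 4 members had a promoter sequence and 80% was needed.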

Additional observations from a re-analysis of the deposited data

Results flagged for a closer look

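Among 88 genes near the members or named in the related lists, 13 had ratios of opposite sign in basal and luminal cells and a called difference, which was not tested since each group has 1 library. The list genes among the 88 were named for their highest, lowest or called values in these same data. The 13 of 88 is therefore not a share of an unselected set. Of all tested genes, 3.72% were called more enriched in basal and 4.16% in luminal cells, whatever the signs of their ratios. The basal minus luminal log2 difference was 0.759 for Dlk1, 0.645 for Ltbp3, 0.766 for Lncenc1, 0.68 for Carmn and 0.61 for Terc, the telomerase RNA gene. It was -1.656 for Sgce, -1.076 for Zdbf2, -0.818 for Calcr, -0.767 for Magel2, -0.694 for Slc38a4, -0.684 for Dpf2, -0.681 for Ppp1r9a and -0.636 for Halr1. All 13 kept opposite signs with total counts, 12 did with olfactory receptors as centre and 10 with the inputs summed. When intervals were widened by the spread of the receptors, 1 of the 13 differences was still called.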

How the results depend on the processing

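Neat1 was called higher in both cell types under all 7 alternatives, with log2 ratios from 1.086 to 1.464 in basal and 1.174 to 1.319 in luminal cells. Malat1 was called higher in both under 6 of them; at the 2-fold threshold its values of 0.777 and 0.749 were not called. With the inputs summed its difference between cell types became -0.289 (-0.541 to -0.038) and that of Neat1 -0.232 (-0.447 to -0.017). The basal call on H19 was lost with olfactory receptors as centre (-0.805), with the inputs summed (-0.779), with the widened interval (-1.019, upper bound 0.432) and with Mir675 reads added (-0.682). Meg3 was called under none.

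Counts of genes called higher and lower moved as follows. With olfactory receptors as centre they were 2994 and 237 in basal ChIP, 571 and 306 in luminal ChIP, 2043 and 408 for the difference, and 13 and 904 between inputs. With the widened interval 243 were lower in basal ChIP, 125 lower in luminal ChIP, and 206 higher and 128 lower for the difference. At 2-fold they were 128 and 222 in basal ChIP, 47 and 132 in luminal ChIP, 133 and 239 for the difference, and 16 and 21 between inputs. The counts as reported were 981 and 939, 347 and 492, 861 and 963, and 164 and 107. Of all calls, those toward ChIP made up 51.1% in basal and 41.4% in luminal ChIP, against 34.7% and 30.7% with total counts and 92.7% and 65.1% with receptors as centre, which put the median of all genes at log2 0.20 and 0.07. The cause of these shifts was not tested. No paired analysis was possible because each group has 1 library. Depth limits H19 most, with 20 to 43 reads per library.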
